A study of Mus musculus with 12 samples.

Results

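A set of 10 genes of the skeletal muscle stem cell lineage were followed through a bulk RNA-seq table of 18996 mouse genes from 12 mice. The members were *Pax7*, *Cdh15*, *Myf5*, *Myod1*, *Myog*, *Myf6*, *Mymk*, *Mymx*, *Myh3* and *Myh8*. They were chosen by gene symbol and role, with earlier results of these data known, so their group differences are described here and given no p-value. All 10 were present in the table once, and all 10 passed the filter on low counts, which kept 14765 genes.

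The mice were wild-type BALB/c animals, 5 to 7 weeks old at purchase, of both sexes across the study, with 4 mice in each of 3 groups. In the No operation group, undisturbed soft tissue from beside the spine was sequenced. In the SHAM group the paraspinal soft tissue was removed but the lamina, the bony roof of the spinal canal, was left in place. In the Laminectomy group spinous processes and laminae were excised so that the dura was exposed. The samples of both operated groups are labelled as scar tissue and were taken 7 days after surgery, so the kind of tissue differs together with surgery. The comparisons ask how the repairing wound differed from undisturbed tissue and whether opening the spinal canal added to that difference. The labels call the 4 mice of a group biological replicates and give no sex or cage, so the errors below measure only the spread between these samples.

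Satellite cells are the resident stem cells of skeletal muscle. They lie between the fibre and its basement membrane, hold the transcription factor Pax7, and after injury divide as myoblasts that carry Myf5 and MyoD. Myoblasts that leave the cell cycle switch on myogenin, fuse with each other or with damaged fibres through the membrane proteins myomaker and myomixer, and build new fibres that first use embryonic and perinatal myosin before the adult myosins replace them.

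Promoter sequences, from 250 bases before to 50 bases after the start site, were found in a RefSeq table (GRCm38.p6) for 6 of the 10 members: *Pax7*, *Myf5*, *Myog*, *Myh3*, *Myh8* and *Cdh15*. Myogenic regulatory factors bind E-boxes, written CANNTG, where N is any base, and MEF2 factors bind an A and T rich consensus. The promoters of *Myog*, *Myh3* and *Myh8* are shown because these genes were at low levels without surgery and high in most operated mice. They lie at chr1:134289754-134290053, chr11:67078050-67078349 and chr11:67276874-67277173, each on the plus strand, with E-boxes and the MEF2 consensus in capitals.
Myog: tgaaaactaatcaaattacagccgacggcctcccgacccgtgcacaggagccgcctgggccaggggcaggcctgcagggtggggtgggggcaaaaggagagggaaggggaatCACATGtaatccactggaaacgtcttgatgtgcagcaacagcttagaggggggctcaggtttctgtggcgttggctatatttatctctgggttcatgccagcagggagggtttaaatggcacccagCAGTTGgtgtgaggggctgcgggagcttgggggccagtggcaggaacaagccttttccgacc
Myh3: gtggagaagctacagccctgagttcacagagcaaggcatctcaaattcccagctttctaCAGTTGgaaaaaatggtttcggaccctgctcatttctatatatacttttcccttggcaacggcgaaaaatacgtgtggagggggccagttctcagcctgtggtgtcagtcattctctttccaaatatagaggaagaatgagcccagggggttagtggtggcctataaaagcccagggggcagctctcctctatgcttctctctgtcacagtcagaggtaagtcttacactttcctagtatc
Myh8: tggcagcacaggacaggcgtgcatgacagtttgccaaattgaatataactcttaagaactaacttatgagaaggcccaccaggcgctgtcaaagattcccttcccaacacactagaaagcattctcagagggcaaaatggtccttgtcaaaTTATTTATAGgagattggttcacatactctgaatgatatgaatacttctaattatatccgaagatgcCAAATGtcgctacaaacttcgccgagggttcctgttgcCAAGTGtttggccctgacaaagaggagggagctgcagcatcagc
The *Myog* window held 2 E-boxes, the *Myh3* window 1, and the *Myh8* window 2 E-boxes and 1 match to the MEF2 consensus. *Cdh15* held 4 E-boxes, and *Pax7* and *Myf5* held none. E-boxes were thus present in 4 of 6 member windows and in 72.3% of 32851 promoter windows of the same length, and the MEF2 consensus in 1 of 6 and in 3.19%. The narrower forms CAGCTG (16.3% of all windows) and CAGGTG (20.2%), both subsets of CANNTG and searched on both strands like the others, were in none of the 6. A match describes letters in the window and not a bound site. Only exact matches to the patterns were counted and set in capitals. A window without one, such as that of *Myog* for MEF2, may still hold a variant site.

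Libraries held 16802988 to 18077863 counts each. Levels are given as CPM, the usual depth-normalised count, over the TMM-scaled library size, and 3 counts, the most that a count of 0 allows, amount to 0.207 CPM in No operation replicate 1. One library stood apart for the members before any group was compared. SHAM replicate 1 had the lowest value of all SHAM mice for 10 of 10 members, more than 4-fold below the mean of the other 3 on the log2 scale each time, while 334 of all tested genes (2.26%) lay that far below. For the original tests 3 of the 4 mice of each group were kept on RNA integrity and sequencing metrics, and whether SHAM replicate 1 was the mouse left out is not given in the sources used here. The SHAM levels of each member are therefore given for that mouse and for the other 3 separately, and sums and counts over gene lists include it unless stated.

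**Figure D1:**
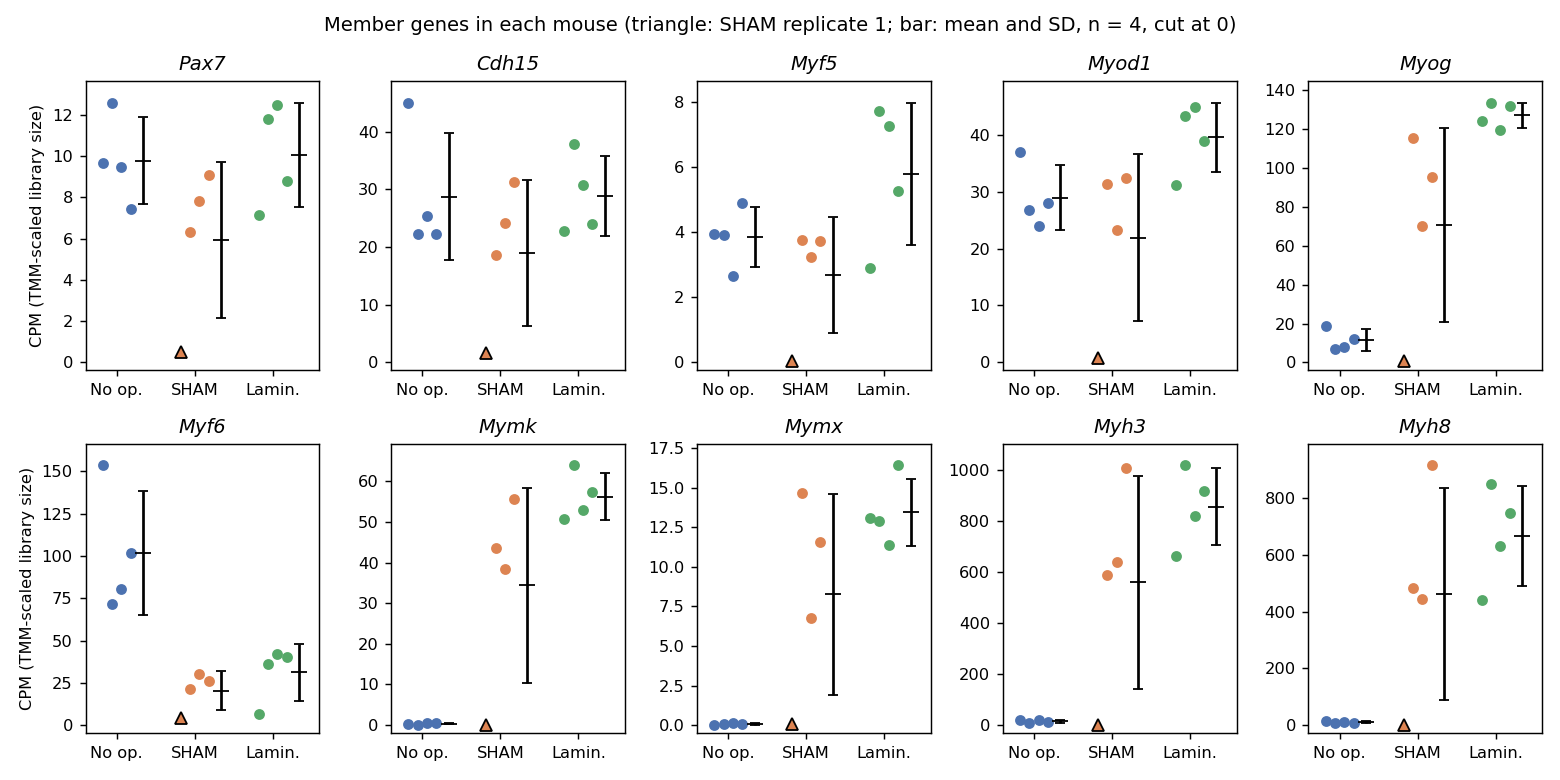
CPM of the 10 members (vertical axes, linear, a separate scale per gene) in every mouse of the 3 groups; each point is a mouse, the triangle is SHAM replicate 1, and the bar gives the mean and SD of 4 mice, cut at 0. SHAM replicate 1 lies near the bottom of every panel, and *Mymk*, *Mymx*, *Myh3* and *Myh8* lie near 0 in the 4 No operation mice.

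The 2 markers of the stem cell itself were near their unoperated level in most operated mice. *Pax7*, the paired-box factor that defines satellite cells (identifier 18509, GRCm38 chromosome 4, 139737062 to 139833528, minus strand), had 9.65, 12.6, 9.46 and 7.43 CPM in No operation replicates 1 to 4. In Laminectomy replicates 1 to 4 it had 7.15, 11.8, 12.5 and 8.81 CPM, and in SHAM replicates 2 to 4 it had 6.31, 7.84 and 9.07 CPM. These ranges overlapped, whereas SHAM replicate 1, at 0.506 CPM, lay below all other mice. The fitted log2 fold change against No operation was 0.04 (SE 0.548) for Laminectomy and -0.72 (SE 0.554) for SHAM, or -0.34 (SE 0.245) without SHAM replicate 1.

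*Cdh15*, which encodes M-cadherin, an adhesion protein of satellite cells and myoblasts (identifier 12555, chromosome 8, 122847966 to 122867397, plus strand), had 45.0, 22.2, 25.4 and 22.2 CPM in the No operation mice. It had 22.8, 37.8, 30.8 and 24.0 CPM in the Laminectomy mice and 18.6, 24.2 and 31.2 CPM in SHAM replicates 2 to 4. Again the groups overlapped apart from SHAM replicate 1, which had 1.69 CPM. Its log2 fold change was 0.01 (SE 0.573) for Laminectomy and -0.60 (SE 0.577) for SHAM, or -0.21 (SE 0.285) without SHAM replicate 1.

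The 2 determination factors, which commit cells to the muscle lineage, also overlapped between groups. *Myf5* (identifier 17877, chromosome 10, 107482908 to 107486134, minus strand) was the least abundant of the myogenic regulatory factors, with 3.93, 3.90, 2.66 and 4.91 CPM in No operation mice. Laminectomy mice had 2.91, 7.71, 7.25 and 5.27 CPM, so that 3 of 4 lay above every No operation mouse and 1 lay within their range. SHAM replicates 2 to 4 had 3.74, 3.23 and 3.74 CPM, inside the No operation range. In SHAM replicate 1 a single count was recorded (0.0562 CPM). The log2 fold change was 0.59 (SE 0.664) in Laminectomy and -0.51 (SE 0.673) in SHAM, or -0.11 (SE 0.325) without SHAM replicate 1.

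*Myod1*, whose product MyoD marks activated satellite cells (identifier 17927, chromosome 7, 46376474 to 46379099, plus strand), had 37.0, 26.8, 23.9 and 28.0 CPM in No operation mice. Laminectomy mice had 31.2, 43.2, 44.8 and 38.8 CPM, and SHAM replicates 2 to 4 had 31.3, 23.2 and 32.4 CPM. The Laminectomy values lay above the No operation values in 3 of 4 mice, and the SHAM values were interspersed with them, except for SHAM replicate 1 at 0.787 CPM. Fitted against No operation, it differed by a log2 fold change of 0.45 (SE 0.638) in Laminectomy and -0.40 (SE 0.641) in SHAM, or 0.00 (SE 0.177) without SHAM replicate 1.

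The 2 later factors went in opposite directions. *Myog*, which encodes myogenin, the factor of terminal differentiation (identifier 17928, chromosome 1, 134289989 to 134292548, plus strand), had 18.95, 6.93, 7.93 and 12.3 CPM in No operation mice. It had 124, 133, 119.5 and 132 CPM in Laminectomy mice, and 115, 70.1 and 95.5 CPM in SHAM replicates 2 to 4. The value in SHAM replicate 1 was 0.955 CPM, below all 4 No operation mice. All 4 Laminectomy mice and 3 of 4 SHAM mice thus lay above the No operation range. The log2 fold change was 3.46 (SE 0.874) in Laminectomy and 2.61 (SE 0.847) in SHAM, or 3.03 (SE 0.298) without SHAM replicate 1.

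*Myf6*, whose product MRF4 is the myogenic factor of mature fibres (identifier 17878, chromosome 10, 107492853 to 107494737, minus strand), lies 6.72 kb from *Myf5* on the same strand. It had 154, 71.7, 80.5 and 102 CPM in No operation mice, which made it the most abundant of the 4 factors there. Laminectomy mice had 6.41, 35.9, 42.0 and 40.1 CPM, and SHAM replicates 2 to 4 had 21.2, 30.4 and 25.8 CPM. In SHAM replicate 1 it had 4.27 CPM. No operated mouse reached the No operation range, and the lowest values were in SHAM replicate 1 and Laminectomy replicate 1. Its log2 fold change was -1.71 (SE 0.596) in Laminectomy and -2.32 (SE 0.611) in SHAM, or -1.97 (SE 0.527) without SHAM replicate 1.

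Both fusion genes were at the edge of detection without surgery. *Mymk*, which encodes the membrane protein myomaker (identifier 66139, chromosome 2, 27061636 to 27072179, minus strand), had 4, 2, 8 and 7 counts in the No operation mice, or 0.276, 0.126, 0.533 and 0.491 CPM. Laminectomy mice had 50.7, 63.9, 52.9 and 57.3 CPM, and SHAM replicates 2 to 4 had 43.6, 38.4 and 55.6 CPM. SHAM replicate 1 had 2 counts (0.112 CPM), as many as No operation replicate 2, and could not be told from the No operation mice at this depth. The operated mice apart from SHAM replicate 1 were therefore separated from the No operation mice by a wide gap. For *Mymk* the log2 fold change was 7.29 (SE 1.20) in Laminectomy and 6.58 (SE 1.18) in SHAM, or 6.99 (SE 0.277) without SHAM replicate 1.

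*Mymx*, which encodes myomixer, the small fusion peptide that acts with myomaker (identifier 653016, chromosome 17, 45600971 to 45602102, minus strand), had 0, 1, 2 and 1 counts in the No operation mice. Laminectomy mice had 13.1, 12.9, 11.4 and 16.4 CPM, and SHAM replicates 2 to 4 had 14.7, 6.78 and 11.6 CPM. A single count (0.0562 CPM) was found in SHAM replicate 1. Over each group, 1033 counts in Laminectomy stood against 4 in No operation, a ratio of 201 with a 95% counting interval of 78.1 to 738. For SHAM the ratio was 125 (48.5 to 459), and 164 (63.7 to 604) without SHAM replicate 1. These intervals cover counting error only.

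The developmental myosins differed in the same way and at far higher counts. *Myh3*, which encodes embryonic myosin heavy chain (identifier 17883, chromosome 11, 67078300 to 67102291, plus strand), had 20.1, 7.37, 21.3 and 12.1 CPM in No operation mice. Laminectomy mice had 665, 1018, 821 and 918 CPM, and SHAM replicates 2 to 4 had 587, 640 and 1009 CPM. SHAM replicate 1, at 1.35 CPM, was below the lowest No operation mouse. The 2 operated groups overlapped, and apart from that mouse neither overlapped with No operation. The log2 fold change was 5.81 (SE 1.22) in Laminectomy and 5.20 (SE 1.19) in SHAM, or 5.62 (SE 0.383) without SHAM replicate 1.

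*Myh8*, which encodes perinatal myosin heavy chain (identifier 17885, chromosome 11, 67277124 to 67308634, plus strand), had 13.8, 6.17, 12.1 and 8.13 CPM in No operation mice. It had 441, 851, 633 and 748 CPM in Laminectomy mice and 486, 444 and 917 CPM in SHAM replicates 2 to 4. In SHAM replicate 1 it had 1.29 CPM. The order of the Laminectomy mice was the same as for *Myh3*. In SHAM, replicate 4 was highest for both genes, while replicates 2 and 3 were in reverse order. The log2 fold change was 6.06 (SE 1.22) in Laminectomy and 5.52 (SE 1.19) in SHAM, or 5.94 (SE 0.389) without SHAM replicate 1. *Myh8* lies 175 kb from *Myh3* in the cluster of skeletal myosin genes, and its deposited values were not whole in 12 of 12 mice, those of *Myh3* in 1. How reads shared between near-identical myosin genes were divided is not given in the sources used here, so the split between paralogs is uncertain. No exon of the 10 members overlapped in position with an exon of another annotated gene.

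Of the 10 members, 5 were called higher (*Myog*, *Mymk*, *Mymx*, *Myh3* and *Myh8*) and 1 lower (*Myf6*) in each comparison with No operation. A call here means that edgeR gave an adjusted p below 0.05 and a log2 fold change beyond 0.5 in either direction. Among all 14765 genes tested, 50.8% were called in SHAM against No operation (25.7% higher, 25.1% lower) and 48.6% in Laminectomy against No operation (24.2% higher, 24.4% lower), and since the members were chosen with results of these contrasts known, nothing is read from the counts. The groups did not overlap for these 6 members between Laminectomy and No operation, as for 56.0% of all genes. Between SHAM and No operation only *Myf6* did not overlap (54.5% of all genes), and 6 members did not once SHAM replicate 1 was set aside (58.6%). The same 6 members were called without SHAM replicate 1, where 48.2% and 49.1% of all genes were. Both comparisons share the 4 No operation mice. *Mymk* and *Mymx* passed the filter through the Laminectomy mice. With SHAM and No operation fitted alone both were below it, so their SHAM calls rest on the fit of all 3 groups. *Myog* was not called in SHAM without No operation replicate 3, and *Myf6* was not called in Laminectomy without No operation replicate 1. In bulk tissue, fewer cells of a type and less RNA per cell cannot be told apart.

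**Figure D2:**
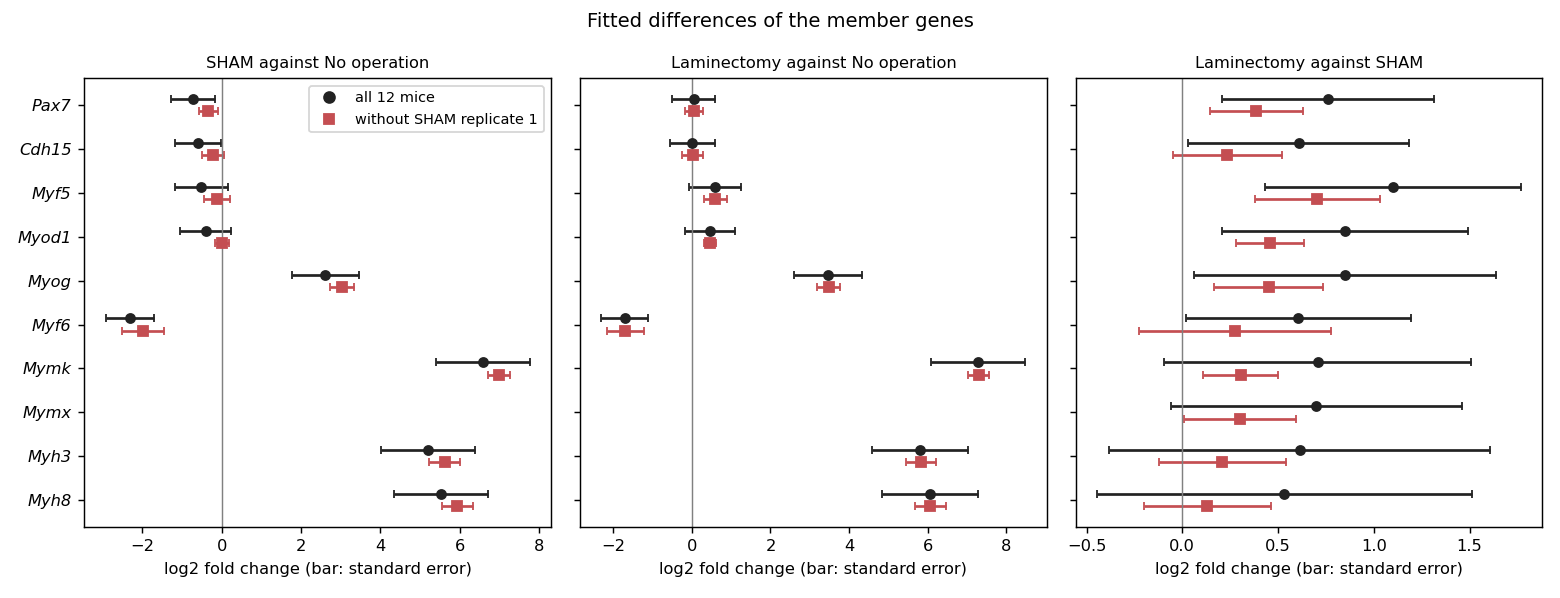
Fitted log2 fold changes of the members (horizontal axes, bars are standard errors) in the 3 comparisons, with all 12 mice (black circles) and without SHAM replicate 1 (red squares). *Mymx* is left out of both comparisons with No operation, where it had 4 counts in all; in SHAM against No operation the SE of *Mymk* is 1.18 with that mouse and 0.277 without it.

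Between the 2 kinds of surgery, 0 of 10 members were called by edgeR, and 0% of all genes were; 2359 genes had an unadjusted p below 0.05. DESeq2 called 687 genes, 8 of them in the muscle lists, and 0 members. All 10 fitted differences of Laminectomy minus SHAM were above 0, from 0.53 (SE 0.978) for *Myh8* to 1.10 (SE 0.670) for *Myf5*. With SHAM replicate 1 set aside they were between 0.13 (SE 0.332) for *Myh8* and 0.71 (SE 0.326) for *Myf5*. *Myog* was the single member whose groups did not overlap, at 119.5 to 133 CPM in Laminectomy and at most 115 CPM in SHAM. That is 1 of 10 members beside 10.1% of all genes, or 11.1% without SHAM replicate 1, so the members' share was near that of the genes at large. The missing calls do not show that both surgeries left the members alike, since these errors allow differences of the size fitted.

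SHAM replicate 1 was examined further because it moved all 10 members at once. Summed over SHAM replicates 2 to 4 and scaled by library size, the level of *Myh3* was 552 times that in SHAM replicate 1 (95% counting interval 371 to 863), that of *Myh8* 476 times (317 to 751) and that of *Myog* 97.9 times (61.1 to 168). The ratio was 36.8 (21.9 to 67.5) for *Myod1*, 15.3 (7.99 to 33.7) for *Pax7*, 14.6 (10.2 to 21.8) for *Cdh15* and 6.05 (4.80 to 7.72) for *Myf6*. For *Mymk*, *Mymx* and *Myf5*, with 2, 1 and 1 counts in that mouse, the ratios were 408 (113 to 3369), 196 (35.0 to 7738) and 63.5 (11.3 to 2521). The intervals of *Myf5*, *Mymk* and *Mymx* are wide and overlap with those of most other members. Of 14765 genes, 1 gene lay further below the other SHAM mice than *Myh3*, and 193 (1.31%) lay further below than *Myf6*. No other mouse had more than 1 member over 4-fold below its own group.

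**Figure D3:**
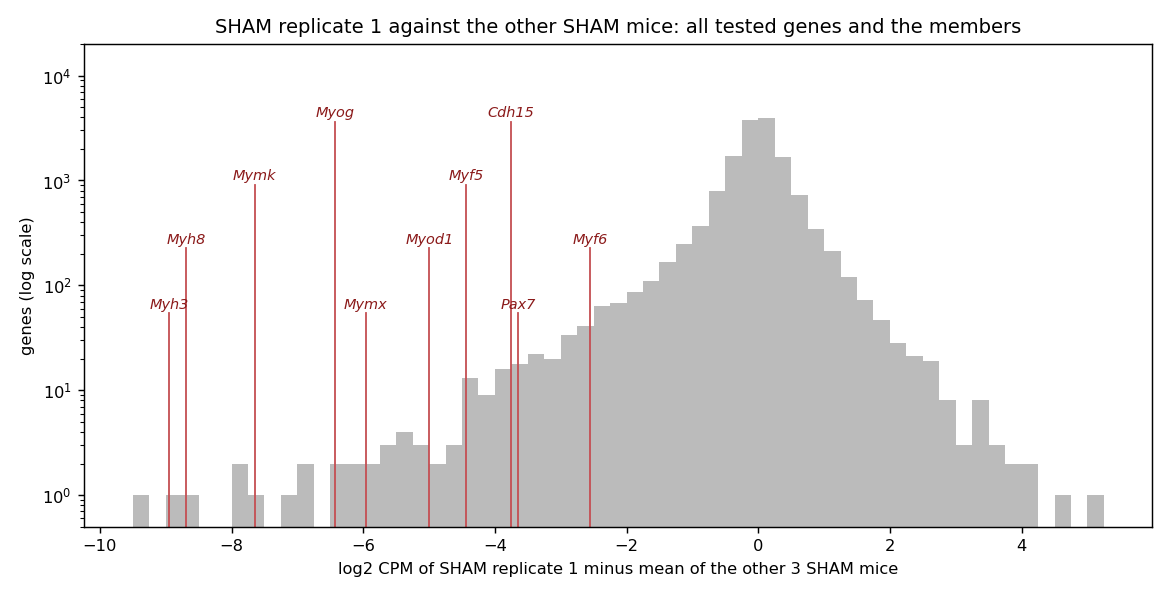
Number of genes (vertical axis, log scale) by the difference in log2 CPM between SHAM replicate 1 and the mean of the other 3 SHAM mice (horizontal axis); red lines mark the 10 members. The bulk of the genes lies around 0, and the members lie between -8.95 (*Myh3*) and -2.55 (*Myf6*).

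Some other cell types differed beside the members in this mouse. The 24 genes of mature fibre summed to 3342 CPM in SHAM replicate 1 and were 3.05-fold to 4.48-fold higher in the other SHAM mice. Its 8 macrophage markers summed to 8908 CPM (5046 to 5630 in the other SHAM mice), its 8 fibroblast markers to 79080 CPM (58520 to 71200), its 8 neutrophil markers to 1738 CPM (737 to 1661) and its 6 Schwann cell and glia markers to 241 CPM (42.1 to 176). Its 8 cartilage and bone markers summed to 7.03 CPM against 136 to 142 CPM. Proliferation genes (8) were at 283 CPM against 366 to 557 CPM. Its adipocyte markers, at 582 CPM (273 to 1611), and T cell markers, at 19.0 CPM (16.7 to 23.3), lay within the range of the other SHAM mice. Its endothelial markers summed to 511 CPM, just below their 516 to 703 CPM. The part of these in the low member values was not tested. In Laminectomy replicate 1 the fibre sum, 5300 CPM, was likewise 3.19-fold to 4.00-fold below the other mice of its group, and the members ranged there from *Myf6*, at 6.41 CPM and more than 4-fold below its group, to *Mymx*, at 13.1 CPM beside 11.4 to 16.4 CPM. All 10 members were below the mean of the other Laminectomy mice in it, with log2 differences from -2.60 to -0.04.

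Across groups, the same lists gave the tissue context of the members, to be read against the 50.8% and 48.6% of all genes that were called. Macrophage markers summed to 849 to 2165 CPM in No operation, 5046 to 8908 in SHAM and 3573 to 5573 in Laminectomy, with 7 of 8 called higher in SHAM and 6 of 8 in Laminectomy by edgeR. Fibroblast markers ran from 8521 to 27810 CPM, from 58520 to 79080 and from 54610 to 67870 CPM in the same order, with 6 of 8 called higher in each operated group and 1 lower. Neutrophil markers (21.7 to 2140, 737 to 1738 and 1391 to 2398 CPM) had 3 of 8 called higher in each, and T cell markers (1.33 to 6.36, 16.7 to 23.3 and 13.5 to 25.7 CPM) had 4 and 3 called higher of 4 tested, with 6 in the list. Adipocyte markers (1946 to 3255, 273 to 1611 and 74.8 to 462 CPM) had 4 and 6 of 6 called lower (2 of 6 in SHAM without SHAM replicate 1), and endothelial markers (692 to 869, 511 to 703 and 466 to 688 CPM) had 3 of 6 called lower in each. Cartilage and bone markers (140 to 1040, 7.03 to 142 and 717 to 2522 CPM) had 0 called higher and 1 lower in SHAM, and 1 higher and 1 lower in Laminectomy (2 higher without SHAM replicate 1). Schwann cell and glia markers (103 to 202, 42.1 to 241 and 38.5 to 797 CPM) had 0 and 1 called higher of 5 tested. Proliferation genes (13.9 to 419, 283 to 557 and 475 to 702 CPM) had 6 and 7 of 8 called higher. *Mobp* was at 0 in all SHAM mice, and no other marker was at 0 throughout a group. How far these shifts in makeup set the member values was not tested.

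Per kilobase of the longest protein-coding transcript, which allows levels of different genes to be set side by side, the order of the members turned over with surgery. In No operation mice *Myf6* led with 80.6 ± 29.1 CPM per kb (SD, n = 4), without overlap with *Myod1* in the second place at 15.6 ± 3.04. *Cdh15* and *Myog* followed at 8.83 ± 3.38 and 7.71 ± 3.66 CPM per kb and did not separate from each other beyond their spread. *Mymk* (0.258 ± 0.138) and *Mymx* (0.0828 ± 0.0677) were last. In Laminectomy mice *Myh3* led with 142 ± 25.0 CPM per kb, followed by *Myh8* at 109 ± 28.6, *Myog* at 85.0 ± 4.34 and *Mymk* at 40.7 ± 4.20. The ranges of these neighbours overlapped except between *Myog* and *Mymk*. With the union of all annotated exons as the length, *Myh8* was at 56.8 ± 15.0 CPM per kb and so below *Myog*. *Pax7* was last there, at 1.72 ± 0.430 CPM per kb, beside 1.67 ± 0.363 in No operation. SHAM replicates 2 to 4 gave the same order of all 10 members as Laminectomy, from *Myh3* at 124 ± 38.1 to *Pax7* at 1.32 ± 0.236 CPM per kb (SD, n = 3). In SHAM replicate 1 *Myf6* led with 3.38 CPM per kb, and *Myog*, next to it, had 0.639.

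Within the family of the 4 myogenic regulatory factors, the leading member was *Myf6* in No operation mice and *Myog* in most operated mice. *Myf6* made up 75.9 ± 2.06% of the family's CPM per kb in No operation mice (SD, n = 4), 17.6 ± 8.69% in Laminectomy mice and 21.0 ± 6.78% in SHAM replicates 2 to 4 (n = 3). *Myog* made up 7.05 ± 1.04%, 64.5 ± 9.34% and 61.8 ± 6.68% in the same order. The share of *Myod1* was 15.2 ± 2.48%, 15.9 ± 1.04% and 15.5 ± 1.17%, and that of *Myf5* was 1.85 ± 0.567%, 2.03 ± 0.594% and 1.72 ± 0.115%. In SHAM replicate 1, *Myf6* was at 75.6%, within the No operation range of 73.1 to 77.9%, and *Myog* at 14.3%, above its No operation range of 5.97 to 8.13%. *Myod1*, at 9.46% (14 counts), and *Myf5*, at 0.604% (1 count), were below theirs, of 12.8 to 18.6% and 1.21 to 2.41%. That mouse had 108 counts over the family, of which 76 (70.4%, exact 95% binomial interval 60.8 to 78.8%) were of *Myf6*.

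Among 6 myosin heavy chains, *Myh3* made up 0.0387 ± 0.0180% of the CPM per kb in No operation mice, 23.4 ± 9.59% in Laminectomy mice (SD, n = 4 each) and 21.4 ± 3.36% in SHAM replicates 2 to 4. *Myh8* made up 0.0251 ± 0.00994%, 17.2 ± 5.08% and 17.2 ± 4.76%, or 10.1% in Laminectomy mice with the exon union as the length. The adult fast myosin *Myh4* was at 70.2 ± 14.7% in No operation and at 33.1 ± 9.95% in Laminectomy mice. SHAM replicate 1 had 0.125% of *Myh3* and 0.118% of *Myh8*, so nearly all of its remaining myosin was adult. In Laminectomy replicate 1, the mouse with the least adult fibre of its group, *Myh3* and *Myh8* reached 37.5% and 24.4%.

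**Figure D4:**
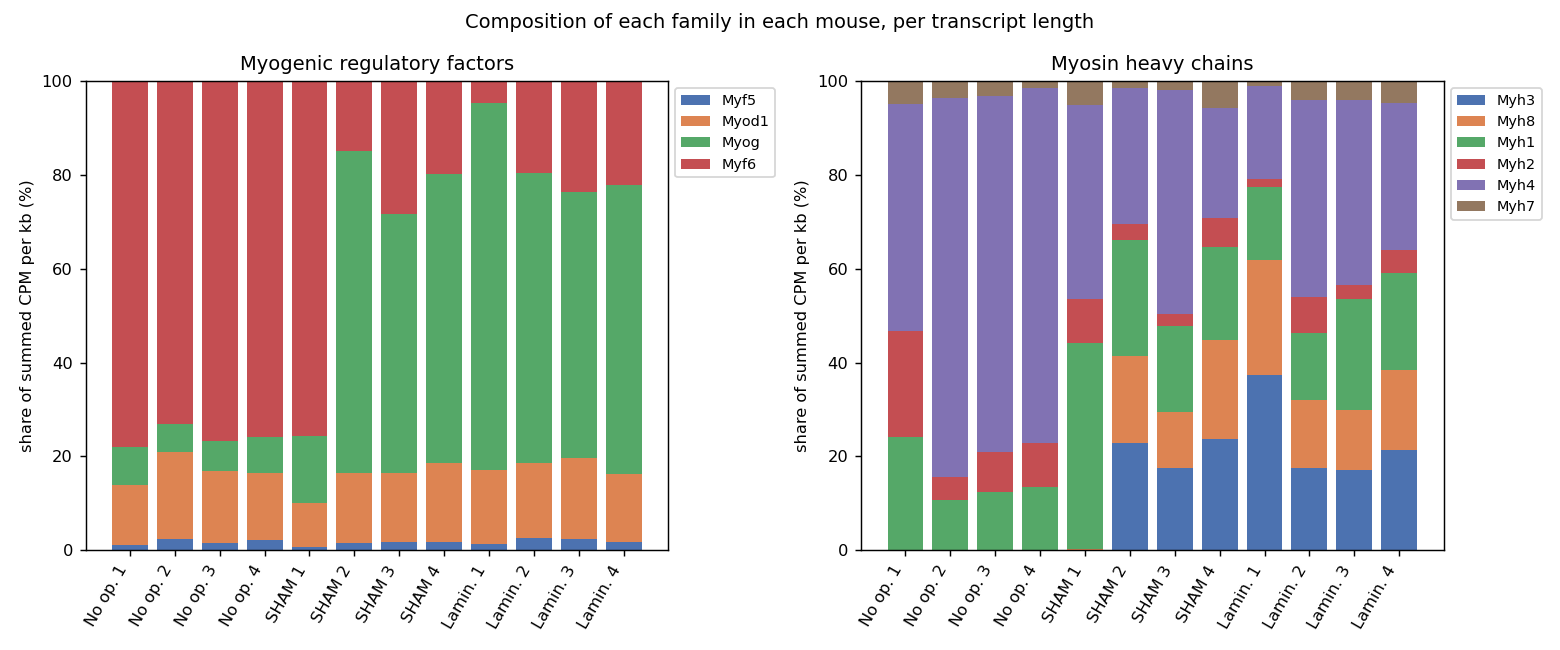
Share of each gene in the summed CPM per kb of its family (vertical axes, percent) in each of the 12 mice, for the myogenic regulatory factors (left) and 6 myosin heavy chains (right). *Myf6* fills about the same part of the bar in SHAM replicate 1 (75.6%) as in the No operation mice (mean 75.9%), and the other operated mice show *Myog*, *Myh3* and *Myh8*.

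Set against the amount of adult fibre, *Pax7*, *Cdh15* and all 4 myogenic factors were higher in operated tissue apart from SHAM replicate 1, though in CPM *Pax7*, *Cdh15*, *Myf5* and *Myod1* overlapped between groups and *Myf6* was lower. *Pax7* had 0.0382 to 0.0897 CPM for each 1000 CPM of the mature fibre list in No operation mice, 0.602 to 0.618 in SHAM replicates 2 to 4 and 0.520 to 1.35 in Laminectomy mice. *Myod1* had 0.144 to 0.256, 1.78 to 3.07 and 2.04 to 5.89 on this scale. *Myf5* had 0.0161 to 0.0278, 0.248 to 0.367 and 0.311 to 0.549. *Cdh15* had 0.114 to 0.311, 1.82 to 2.08 and 1.42 to 4.30, and *Myf6* 0.486 to 1.06, 1.73 to 2.34 and 1.21 to 2.38. *Myog* had 0.0479 to 0.131, 5.39 to 11.3 and 6.28 to 23.4. No operated mouse other than SHAM replicate 1 overlapped with No operation on these 6 ratios. SHAM replicate 1 had 0.151 for *Pax7*, 0.235 for *Myod1*, 0.0168 for *Myf5*, 0.505 for *Cdh15*, 1.28 for *Myf6* and 0.286 for *Myog*, so that *Myod1* and *Myf5* lay within their No operation ranges and the others above them. The ratio rises when the denominator falls, and the fibre list fell in both operated groups, as given next.

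The contractile apparatus of adult fibres was lower throughout. All 24 genes of the mature muscle fibre list fell in both comparisons with No operation, with a median log2 fold change of -3.76 in SHAM and -3.11 in Laminectomy, where the median over all genes was 0.00 and 0.01. The list summed to 140400 to 194700 CPM in No operation mice, 3342 to 14980 in SHAM and 5300 to 21220 in Laminectomy. Genes named from this and the following lists are called ones with the most extreme log2 fold changes in Laminectomy. Their adjusted p-values in that comparison were thus below 0.05 by selection. *Mybpc2*, a fast myosin-binding protein, went from 3508 ± 882 to 155 ± 96.9 CPM in Laminectomy (SD, n = 4 each; log2 fold change -4.50, SE 0.687, adjusted p = 0.000219, quasi-likelihood test of edgeR, Benjamini-Hochberg). *Pvalb*, the calcium buffer parvalbumin of fast fibres, went from 3785 ± 1587 to 174 ± 103 CPM (log2 fold change -4.45, SE 0.703, edgeR adjusted p = 0.000277).

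The developmental and regenerating fibre list, which holds genes that immature fibres share with embryonic and cardiac muscle and others that respond to fibre stress, was split. Of 14 genes, 4 rose and 5 fell in Laminectomy, and 3 rose and 5 fell in SHAM, with medians of -0.44 and -1.001. Without SHAM replicate 1, 4 rose and 5 fell in SHAM, with a median of -0.63. *Myl4*, the embryonic and atrial myosin light chain, rose from 6.77 ± 0.561 to 204 ± 43.5 CPM in Laminectomy (SD, n = 4 each; log2 fold change 4.91, SE 0.904, edgeR adjusted p = 0.000748), and it had 133 to 201 CPM in SHAM replicates 2 to 4 and 2.42 CPM in SHAM replicate 1. *Tnnt2*, the cardiac and embryonic troponin T, rose from 7.37 ± 3.48 to 124 ± 16.5 CPM (log2 fold change 4.07, SE 0.996, edgeR adjusted p = 0.00432), with 0.337 CPM in SHAM replicate 1. These 2 genes thus shared the pattern of *Myh3* in that mouse. The 2 largest falls were those of *Ankrd2* and *Xirp1*, proteins of stretched or remodelling fibres, at log2 fold changes of -4.97 (SE 1.07, edgeR adjusted p = 0.00202) and -3.19 (SE 0.641, edgeR adjusted p = 0.00132). Both were spread widely in No operation mice, from 65.4 to 970 and from 163 to 1021 CPM.

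Other genes of the satellite cell and its niche moved both ways. Among 16 genes, 5 rose and 5 fell in Laminectomy, and 4 rose and 8 fell in SHAM, with medians of 0.23 and -0.44. Without SHAM replicate 1, 7 rose and 7 fell in SHAM (median -0.32), and 7 rose and 6 fell in Laminectomy. *Megf10*, a receptor of satellite cells, rose from 4.94 ± 1.20 to 28.3 ± 3.58 CPM in Laminectomy (SD, n = 4 each; log2 fold change 2.52, SE 0.597, edgeR adjusted p = 0.00361). In SHAM it was not called with all mice (log2 fold change 1.40, edgeR adjusted p = 0.0548), and it was called without SHAM replicate 1 (log2 fold change 1.78, edgeR adjusted p = 5.32e-05), in which it had 1.01 CPM against 13.6 to 19.5 CPM in the other SHAM mice. *Cxcr4*, a chemokine receptor that leukocytes also carry, rose from 19.9 ± 14.7 to 70.6 ± 5.03 CPM in Laminectomy (edgeR adjusted p = 0.00164) and was at 74.1 CPM in SHAM replicate 1. *Chodl*, chondrolectin, and *Cd34*, also carried by vessels and stroma, fell, with log2 fold changes of -1.76 (SE 0.682, edgeR adjusted p = 0.0426) and -1.05 (SE 0.240, edgeR adjusted p = 0.00287). The genes of this list were not at one common ratio to No operation. Some are also carried by other cells, and the part of satellite cells in these values was not tested.

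Of the cofactors and repressors of the myogenic factors, 17 of 18 were tested (*Tcf21* was below the filter), and 5 rose and 5 fell in Laminectomy, with 3 and 7 in SHAM. The 2 largest rises were of inhibitors of myogenic factors. *Mdfi*, which encodes a protein that holds them back from the nucleus, rose from 3.24 ± 1.34 to 14.8 ± 1.45 CPM (SD, n = 4 each; log2 fold change 2.19, SE 0.310, edgeR adjusted p = 0.00014), and *Msc*, which encodes the repressor musculin, from 2.08 ± 0.433 to 6.80 ± 2.32 CPM (log2 fold change 1.71, SE 0.521, edgeR adjusted p = 0.0146). *Mef2c*, a partner of the myogenic factors, fell from 502 ± 49.6 to 215 ± 42.0 CPM (log2 fold change -1.22, SE 0.326, edgeR adjusted p = 0.00702). *Eya1*, a transcriptional cofactor of muscle precursors, fell from 19.4 ± 1.47 to 8.51 ± 1.86 CPM (log2 fold change -1.19, SE 0.387, edgeR adjusted p = 0.0200). The medians of this list were 0.02 in Laminectomy and -0.20 in SHAM, or -0.12 in SHAM without SHAM replicate 1.

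Signals that reach satellite cells were tested for 23 of 24 genes (*Wnt7a* was below the filter). In Laminectomy 6 rose and 5 fell, and in SHAM 9 rose and 7 fell, with medians of 0.00 and -0.03. *Il6*, the cytokine interleukin 6, was at 0.219 ± 0.279 CPM in No operation and at 9.60 ± 7.19 CPM in Laminectomy (SD, n = 4 each; edgeR adjusted p = 0.00023). *Igf2*, a growth factor of regenerating muscle, rose from 67.3 ± 14.3 to 696 ± 189 CPM (log2 fold change 3.37, SE 0.469, edgeR adjusted p = 0.000124), while the SHAM mice had 444 to 644 CPM except for replicate 1, with 102 CPM. *Mstn*, which encodes myostatin, a fibre-derived inhibitor of muscle growth, fell from 78.4 ± 28.7 to 5.14 ± 3.53 CPM (log2 fold change -3.93, SE 0.685, edgeR adjusted p = 0.000531). *Fgf2* fell from 62.8 ± 4.67 to 14.4 ± 5.83 CPM (log2 fold change -2.12, SE 0.359, edgeR adjusted p = 0.000433).

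The wider machinery of cell fusion, which many cell types use, was tested for 25 of 26 genes (*Adgrb1* was below the filter). In Laminectomy 10 rose and 4 fell, in SHAM 9 rose and 4 fell, and the medians were 0.31 and 0.42. *Adam12*, a metalloprotease of fusing myoblasts and of stromal cells, rose from 47.4 ± 55.1 to 235 ± 27.5 CPM (SD, n = 4 each; log2 fold change 2.31, SE 0.671, edgeR adjusted p = 0.0112) and was at 263 CPM in SHAM replicate 1, inside the range of the other SHAM mice. *Cdh2*, N-cadherin, rose from 20.6 ± 12.8 to 75.3 ± 16.7 CPM (log2 fold change 1.87, SE 0.362, edgeR adjusted p = 0.00103). *Tmem182*, a muscle membrane protein known to restrain fusion, fell from 430 ± 66.4 to 60.1 ± 19.8 CPM (log2 fold change -2.84, SE 0.440, edgeR adjusted p = 0.000241), and *Jam2*, a junctional adhesion molecule, from 132 ± 28.4 to 37.6 ± 8.72 CPM (log2 fold change -1.81, SE 0.222, edgeR adjusted p = 5.64e-05).

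**Figure D5:**
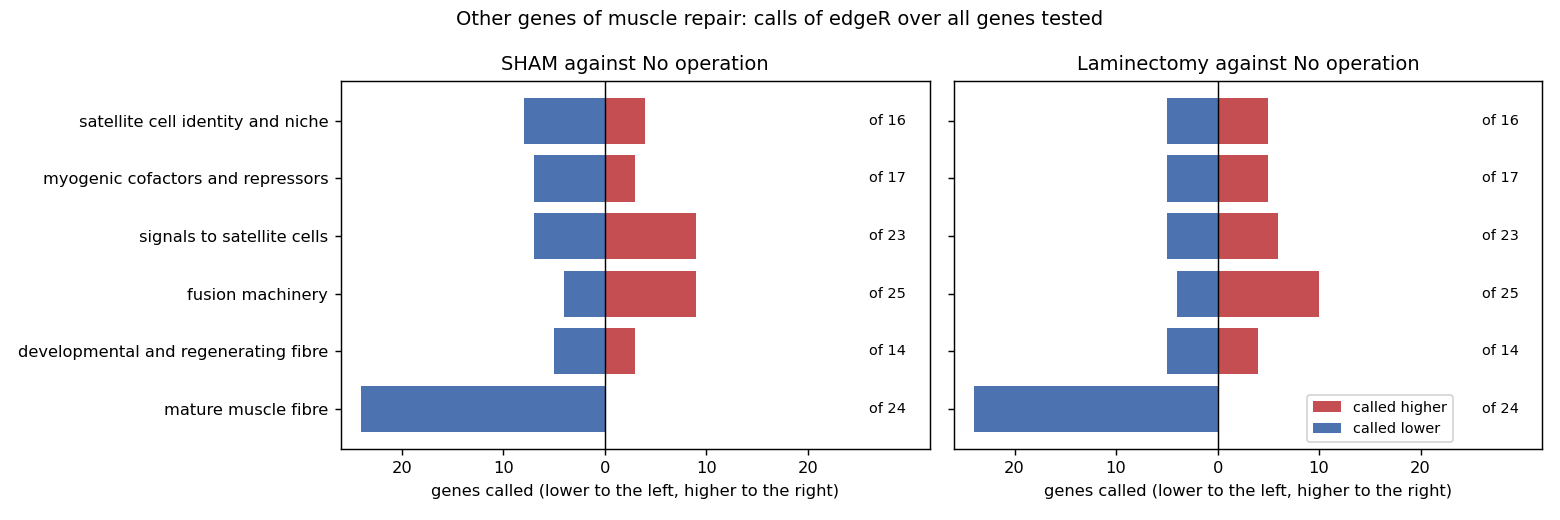
Number of genes of each list called higher (red, to the right) or lower (blue, to the left) by edgeR, adjusted over all genes, in SHAM and in Laminectomy against No operation (horizontal axis, genes), beside the number tested. All 24 mature fibre genes lie on the lower side, and the other 5 lists hold calls in both directions.

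In Laminectomy against SHAM, edgeR called 0 genes of the 6 lists. The share of all genes called against No operation stood at 50.8% for SHAM and 48.6% for Laminectomy. With all 12 mice the lists other than mature fibre lay between 47.8% and 75%. In the mature fibre list 100% were called in each comparison. Without SHAM replicate 1, the satellite cell list had 7 of 16 called higher and 7 lower in SHAM, beside 48.2% of all genes. In Laminectomy it then had 7 higher and 6 lower, beside 49.1%.

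The genes most like *Myog*, *Mymk* and *Myh3* over the 12 mice were sought by the root mean square difference in centred log2 CPM, over 14755 other genes. Nearest to *Myog* were *Chrnd* (0.39), *Otog* (0.39), *Tnnt2* (0.47), *Zdbf2* (0.57) and *Shisal1* (0.59). *Mymk* was nearest to *Chrng* (0.47), *Myl4* (1.05), *Cldn2* (1.15), *Dcx* (1.34) and *R3hdml* (1.39), and *Myh3* to *Chrng* (0.60), *Tnnt2* (0.89), *Myl4* (0.92), *Cldn2* (1.08) and *Shisal1* (1.26). *Chrnd* and *Chrng* encode the delta and the fetal gamma subunit of the muscle acetylcholine receptor. *Chrng* was at 0 to 0.561 CPM in No operation, 20.3 to 30.2 in Laminectomy, 21.2 to 27.8 in SHAM replicates 2 to 4 and 0 in SHAM replicate 1. The low values of SHAM replicate 1 enter each of these measures. Among the members themselves, *Myh8* was at 0.21 from *Myh3*, and *Mymx* and *Myh8* were at 0.64 and 0.65 from *Mymk*.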

How the data were processed

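Total RNA of paraspinal soft tissue (No operation) or scar tissue (SHAM and Laminectomy) was made into stranded mRNA libraries and sequenced for 12 mice. The authors aligned reads to GRCm38 with STAR and counted genes with featureCounts at default settings. The submitters' processing notes name STAR 2.6.1b, featureCounts 2.0.1 and DESeq2 1.30.1. The authors deposited a table of estimated counts that are not normalized: 10.22% of the values were not whole numbers, and no source used here describes the step behind them. The design here assumed whole counts, so values were rounded, which moved none by more than 0.5. Groups came from the sample labels. Per the series text, 1 of the 4 mice of each group was left out of the original tests on RNA integrity and sequencing metrics. The mice left out are not named, so all 4 were used here. The day of collection was taken from the paper.

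Counts were analysed in R 4.3.3 with edgeR 4.0.16 (filterByExpr by group, TMM, quasi-likelihood test, 1 fit over 12 mice with group as the term). Adjusted p-values are Benjamini-Hochberg over 14765 genes, and a call needs one below 0.05 with a log2 fold change beyond 0.5 in either direction. The common dispersion was 0.0799, a biological coefficient of variation of 28.3%. The fit was tested on simulated data. DESeq2 1.42.0, other filters and scalings, a replicate block and leaving out each mouse were alternatives. Members and lists were chosen with earlier results of these data known. Named were the members and, from each muscle list, the 2 highest and 2 lowest log2 fold changes of Laminectomy against No operation among called genes with at least 5 CPM in the higher group, plus the 5 genes nearest to *Myog*, *Mymk* and *Myh3*. Lengths are those of the longest protein-coding transcript in GENCODE vM21, and coordinates are from the same annotation. The sources do not say whether strand entered the counting, beyond naming defaults. Counting intervals are exact at 95%. The lists were written from textbook knowledge: 6 of muscle repair and 9 of markers (neutrophil, macrophage, fibroblast, endothelial cell, adipocyte, cartilage and bone, Schwann cell and glia, T cell, proliferation).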

Additional observations from a re-analysis of the deposited data

Results flagged for a closer look

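In 3 cases a single mouse lay far from the rest of its group, among 48 sets of 4 mice examined (levels of the members and shares within their families, in each group), where chance flags about 1 in 20. The lowest SHAM value of *Myf5* was 0.0562 CPM in SHAM replicate 1, beside 3.23 to 3.74 CPM in the others. The highest No operation value of *Cdh15* was 45.0 CPM in No operation replicate 1, beside 22.2 to 25.4 CPM. The lowest Laminectomy value of *Myf6* was 6.41 CPM in Laminectomy replicate 1, beside 35.9 to 42.0 CPM.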

How the results depend on the processing

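The direction of every called member held under each alternative in which that member was tested, and 0 of these reversed. The alternatives were DESeq2, RLE scaling, no filter on low counts, at least 10 counts in every mouse, only the groups compared, replicate block and each mouse left out. Of the members not called, *Pax7* (0.04) and *Cdh15* (0.01) in Laminectomy changed sign in some fits, and their log2 fold changes reached -0.08 without Laminectomy replicate 3 and -0.15 without Laminectomy replicate 2. *Myod1* in SHAM (-0.40) was at 0.00 without SHAM replicate 1. Where no cause is given for a change below, the cause was not tested. A minimum log2 fold change of 1 lowered the genes called in SHAM from 7502 to 4589 and in Laminectomy from 7183 to 4323, and all 6 members stayed called. For Laminectomy against SHAM, DESeq2 called 687 genes, where edgeR called 0, and 8 genes of the muscle lists but 0 members. Leaving out 1 mouse of the groups compared at a time gave 6966 to 7642 genes called in SHAM, 6534 to 7416 in Laminectomy and 0 between them, with 5 to 6 members called in each comparison with No operation, 78 to 84 and 74 to 79 list genes. Leaving out SHAM replicate 1, which shares the fit, gave 87 list genes in Laminectomy, where all mice gave 78. With at least 10 counts in every mouse, 4 members were called in each, since genes low in 1 group were removed, and fitting SHAM and No operation alone called 4, with *Mymk* and *Mymx* below the filter. Same-numbered mice did not deviate together in all pairs of groups (correlations from -0.228 to 0.352). Those between No operation and Laminectomy were all positive, from 0.069 to 0.352. No label names the numbers as pairs, and they are not taken as such. A fit with a replicate block called 7442 genes and 5 members in SHAM (*Myog* was lost), 7153 genes and 6 members in Laminectomy and 0 between them. Shares within a family moved with length: as shares of counts *Myf6* was at 69.2% in No operation, and with the union of all exons as the length, an alternative added after seeing the data, *Myh8* was at 10.1% in Laminectomy. Depth limits *Mymk* and *Mymx* in No operation and *Myf5*, *Mymk* and *Mymx* in SHAM replicate 1, which rest on 0 to 8 counts.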
